A study of Oikopleura dioica with 12 samples.

Results

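The genes described here were 200 gene models of the larvacean Oikopleura dioica, a small planktonic chordate, whose RNA was abundant in a single total RNA library, together with genes of the axoneme. They were chosen by their levels in total RNA, after a read minimum over all libraries. With RPM as the counts of a gene scaled to the library total, genes with at least 100 reads over the 12 libraries were taken whose RPM in RNA Torin 1 replicate 3 was at least 10 times the highest RPM in any of the other 5 RNA libraries. Of the 17212 genes counted, 14574 had 100 reads and 677 met that ratio. After 13 models used to recognise the pattern (11 axoneme models and 2 histone models, of which 7 met the ratio) were set aside, 670 remained, and the 200 with the highest RPM in RNA Torin 1 replicate 3 became the members. All RNA values below are therefore a description of the choice, and no RNA difference was tested. The RPF libraries entered the rule only through the read minimum.

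The study exposed whole day-6 animals in seawater with algal food for 1.5 h to 1 μM Torin 1, an inhibitor of the mTOR kinase, or to DMSO as the vehicle, and collected females. From each collection both the total RNA and the RPFs were sequenced, where RPFs are ribosome-protected fragments, the pieces of mRNA that a ribosome shields from nuclease. There were 3 libraries each of RNA Torin 1, RNA DMSO, RPF Torin 1 and RPF DMSO, and the study called them biological replicates. No genotype or transgene was involved, and each library pooled whole animals with all their tissues. In such bulk samples more RNA per cell and more cells of a type cannot be told apart.

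The axoneme is the core of motile cilia and of the sperm tail. It is built of microtubule doublets around a central pair, and dynein arms on the doublets hydrolyse ATP to slide neighbouring doublets past each other. Radial spokes, nexin links and the central pair turn this sliding into regular beating, and inner proteins of the doublets stabilise them. Larvaceans carry cilia on the gill openings and in the gut, and males make flagellated sperm. Roles given below are known from mammals, the alga Chlamydomonas or other species, and not from Oikopleura dioica.

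Several libraries stood apart. The library labelled RPF DMSO replicate 1 held 22889270 counts, against 91549 to 874562 in the other 5 RPF libraries, and its profile was closest to RNA Torin 1 replicate 3. The Spearman correlation of these 2 libraries was 0.95 over 14574 genes, whereas RPF DMSO replicate 1 gave 0.76 to 0.80 with the other RPF libraries. RNA Torin 1 replicate 2 and RNA DMSO replicate 2, which the labels put in different groups, differed by little more than sampling noise (chi-square per degree of freedom of 1.07, against at least 26.02 for any other pair of RNA libraries). RNA totals were between 7520819 and 27462750 counts. The limit that a count of 0 allows (3 counts, counting error only) was 0.399 RPM for the shallowest RNA library and 32.8 RPM for RPF Torin 1 replicate 3, the shallowest of all.

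In RNA Torin 1 replicate 3 the 200 members took 15.3% of all counts. In the RNA Torin 1 libraries the share was 0.441%, 0.230% and 15.3%, against 0.178%, 0.227% and 0.121% in the RNA DMSO libraries. The lowest Torin 1 share was thus just above the highest DMSO share, in the pair of libraries that differed by little more than sampling noise, and RNA Torin 1 replicate 3 stood far above all others. Exact (Clopper-Pearson) 95% binomial intervals were narrow at this depth, for example 15.2% to 15.3% in RNA Torin 1 replicate 3 and 0.119% to 0.122% in RNA DMSO replicate 3. The ratio between RNA Torin 1 replicate 3 and the next RNA library ran from 10.05 to 113 over the members, with a median of 52.9, and the members' levels in that library were between 278 and 3116 RPM. The 10 most abundant members took 14.5% of the members' counts there, so the share did not come from a few genes. The 470 genes that met the ratio but were less abundant took a further 3.55% of that library.

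At the rank threshold the last 2 members stood at 282 and 278 RPM in RNA Torin 1 replicate 3 and the first 2 genes beyond it at 277.6 and 269 RPM. At the ratio threshold the nearest members had 10.05 and 10.4, and the nearest genes of sufficient level that missed it had 9.86 and 9.73.

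The RPF libraries gave another order. The members took 4.15%, 14.9% and 5.71% of counts in the RPF Torin 1 libraries, against 20.3%, 1.22% and 3.49% in the RPF DMSO libraries. The groups overlapped, because the highest share and the lowest share were both in DMSO libraries. The mean was 8.25% ± 5.80 in RPF Torin 1 and 8.33% ± 10.4 in RPF DMSO (SD, n = 3 each). Without RPF DMSO replicate 1, the DMSO shares were 1.22% and 3.49%, both below the lowest Torin 1 share. In RPF Torin 1 replicate 2 the 2 highest members, GSOIDG00013833001 and GSOIDG00000621001, alone made 6.22% of the counts.

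**Figure D1:**
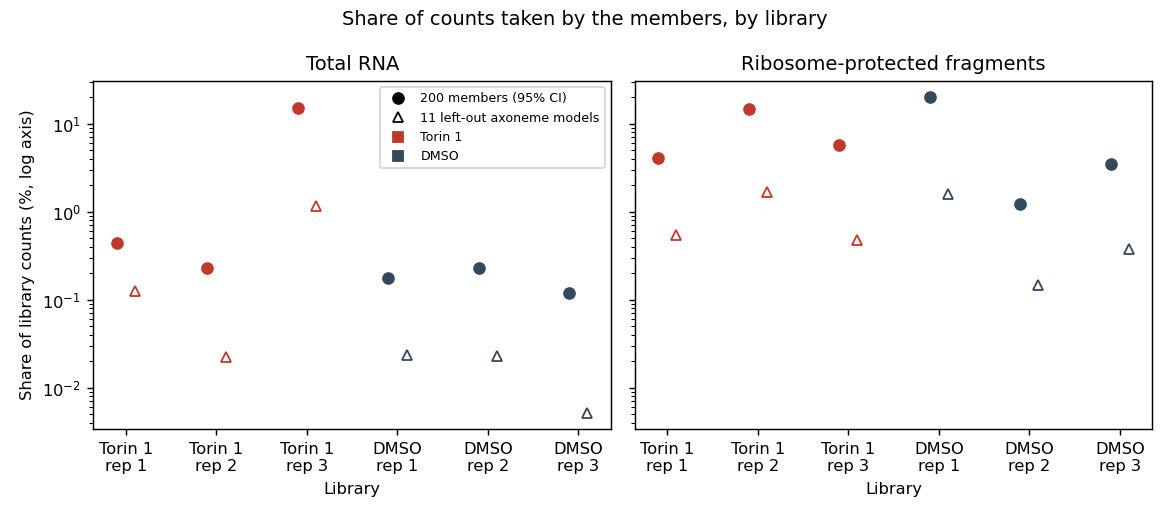
Share of library counts (percent, log axis) taken by the 200 members (filled circles, with exact 95% intervals that are smaller than the symbols) and by the 11 left-out axoneme models (open triangles) in each library, Torin 1 in red and DMSO in dark grey. In total RNA the members reach 15.3% in Torin 1 replicate 3 and stay at or under 0.441% elsewhere, while in RPFs they range between 1.22% and 20.3%.

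The 11 left-out axoneme models (6 dynein heavy chains, 4 radial spoke proteins and tektin 3) moved between libraries much as the members did. Summed, they stood at 1272, 225 and 11588.5 RPM in RNA Torin 1, against 236, 228 and 51.0 RPM in RNA DMSO, and at 5407, 17016 and 4828 RPM in RPF Torin 1, against 15951, 1472 and 3791 RPM in RPF DMSO. The highest and lowest libraries were those of the members, except that in RPFs Torin 1 replicate 2 exceeded DMSO replicate 1. The beta heavy chain of the outer dynein arm (GSOIDG00009218001), the motor subunit itself, had 179.8, 42.3 and 3024 RPM in RNA Torin 1, against 28.6, 41.4 and 18.1 RPM in RNA DMSO. Only 5 of the 11 axoneme models met the ratio of 10. Tektin 3 (GSOIDG00017210001), a filament inside the doublet, missed it because it had 217 RPM in RNA Torin 1 replicate 1, against 801 RPM in RNA Torin 1 replicate 3.

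RNA Torin 1 replicate 1 was the next highest RNA library for 183 of the 200 members, where 47.8% of all 14574 genes were higher in it than in the 4 remaining RNA libraries. The ratio to the highest of those 4 had a median of 1.96 over the members, with a range between 0.464 and 6.50. It was at least 3 for 38 members (19%), which is below the 23.8% of all genes. This library also held the highest summed levels of genes described as muscle, digestive, house and oocyte coat genes. Muscle genes (27 models that are no members) stood at 5512 RPM there, against 92.2 to 1170.4 RPM in the other RNA libraries, and house proteins, the oikosins of the mucous filter, at 5593 RPM, against 216 to 1312 RPM. The part of these other tissues in the members' levels in that library was not tested. In RNA Torin 1 replicate 3 muscle genes, at 1127 RPM, and house proteins, at 1136 RPM, lay within the range of the 4 other RNA libraries. Digestive genes, at 723 RPM, and oocyte coat genes, at 154 RPM, were above those 4 (66.02 to 381 RPM and 35.6 to 122 RPM) and below RNA Torin 1 replicate 1, and 13 ribosomal protein models summed to 3608 RPM, below the 5540 to 6728 RPM of the others.

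**Figure D2:**
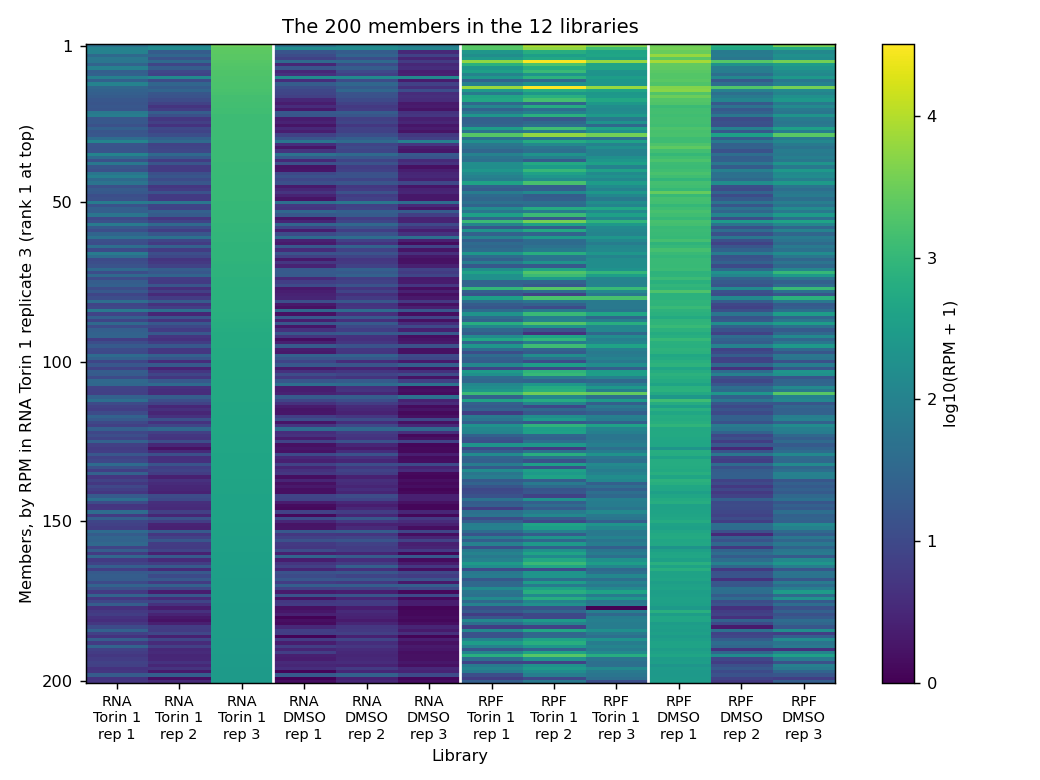
Level of each member as log10(RPM + 1) in the 12 libraries, with members ordered from the most abundant (top) to the least abundant in RNA Torin 1 replicate 3, and Torin 1 to the left of DMSO within each assay. RNA Torin 1 replicate 3 and RPF DMSO replicate 1 share a smooth gradient from top to bottom, and the other RPF libraries share bright rows at other ranks.

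Of the 200 members, 92 carried a description by sequence similarity other than an unnamed product and 108 carried none. The descriptions come from a supplementary list of the study that was at hand only in part, 1998 genes ordered by their change in these same libraries, so the numbers of described members are not independent of the data. Of the described members, 33 matched the lists for dynein arms, radial spokes and nexin links, central pair and doublets, tubulin, kinesins and basal bodies, or sperm and testis. Counts per list, such as 6 of 21 described models for dynein arms, 7 of 19 for radial spokes and nexin links and 10 of 22 for the central pair and doublets, are given as counts only, beside 92 members among the 1087 described genes in all. The lists for kinases and phosphatases held 6 members of 60 models and those for channels and transporters 2 of 67. The lists of other cell types held 1 of 28 muscle models, 0 of 25 digestive, 0 of 12 house, 0 of 5 oocyte coat and 0 of 13 ribosomal protein models.

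Members on the dynein arm list were docking factors and smaller subunits, and 6 heavy chains named as dyneins, the motors, had been left out. A further 4 members, described only as heavy chain 2, did not match this list and are given with the operons below. CCDC151 (GSOIDG00011911001), which helps to attach outer arms to the doublet, had 23.5, 10.2 and 1758 RPM in RNA Torin 1, against 2.92, 10.0 and 1.24 RPM in RNA DMSO. Its RPFs were at 25.1, 32.6 and 240.3 RPM in Torin 1, against 2244, 17.2 and 59.8 RPM in DMSO. RPF DMSO replicate 1 therefore stood alone, with DMSO replicate 2 below and DMSO replicate 3 within the range of the Torin 1 values. Dynein intermediate chain 3 (GSOIDG00009352001), part of the base of an arm, had 12.2, 5.19 and 1139 RPM in RNA Torin 1, against 0.843, 6.39 and 1.35 RPM in RNA DMSO. It was more heavily footprinted, at 237, 985 and 382 RPM in RPF Torin 1, against 1316, 89.2 and 266 RPM in RPF DMSO. ARMC4 (GSOIDG00002139001), another docking factor, had 961 RPM in RNA Torin 1 replicate 3 and the smallest ratio of the dynein arm members (12.99), since its level in RNA Torin 1 replicate 1 was 74.0 RPM. The outer arm dynein binding protein (GSOIDG00011260001) reached 1075 RPM in the same library, against at most 12.3 RPM in the other RNA libraries.

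Members of the spokes and nexin links included several parts of the nexin-dynein regulatory complex, which joins neighbouring doublets. CCDC39 (GSOIDG00005126001), which with its partner sets the spacing of spokes and inner arms along the doublet, had 60.9, 13.3 and 2253 RPM in RNA Torin 1, against 6.41, 10.7 and 1.89 RPM in RNA DMSO. Its RPFs were at 267, 487 and 317 RPM in Torin 1, against 2263, 60.6 and 155 RPM in DMSO. All Torin 1 libraries exceeded DMSO replicates 2 and 3, and DMSO replicate 1 exceeded them all. GAS8 (GSOIDG00001282001), a scaffold of the regulatory complex, had 98.0, 29.4 and 1733 RPM in RNA Torin 1, against 20.6, 31.1 and 6.41 RPM in RNA DMSO. LRRC48 (GSOIDG00017231001), another subunit, had only 44.5, 44.6 and 43.7 RPM in RPF Torin 1, against 1297, 19.4 and 65.8 RPM in RPF DMSO, though its RNA reached 1209 RPM in Torin 1 replicate 3. Its RPF value in Torin 1 replicate 3 was close to the 32.8 RPM that 3 counts give there. CCDC65 (GSOIDG00002337001), also of this complex, reached 1109 RPM in RNA Torin 1 replicate 3. The 7 members of this list together spanned 373 to 2253 RPM.

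For the central pair and other doublet parts, the most abundant member was a WDR65-like protein (GSOIDG00011346001), a WD repeat protein of cilia. It had 98.4, 19.3 and 2343 RPM in RNA Torin 1, against 13.8, 19.5 and 2.29 RPM in RNA DMSO. WDR52 (GSOIDG00017480001), which tethers an inner dynein, followed with 92.7, 20.5 and 1899 RPM in RNA Torin 1, against 13.7, 19.9 and 2.84 RPM in RNA DMSO. Both were among the members that were at least 3 times higher in RNA Torin 1 replicate 1 than in the 4 libraries below it. CCDC11 (GSOIDG00003048001), a doublet protein, had the smallest ratio of this group (10.9), with 108 RPM in RNA Torin 1 replicate 1 and 1171 RPM in replicate 3. Enkurin (GSOIDG00015686001), an inner doublet protein of sperm and cilia, had 15.2, 5.05 and 1143 RPM in RNA Torin 1, against 0.731, 5.52 and 0.619 RPM in RNA DMSO.

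Among proteins that bind or modify tubulin, a tubulin-tyrosine ligase family member (GSOIDG00010419001) had a ratio of 98.9 and was at 14.3, 6.78 and 1411 RPM in RNA Torin 1, against 1.29, 6.54 and 1.02 RPM in RNA DMSO. Doublecortin (GSOIDG00003709001), named for a family that binds microtubules, reached 1172 RPM in RNA Torin 1 replicate 3, and TTLL3 (GSOIDG00006798001), which in mammals adds glycine to tubulin in cilia, reached 390.4 RPM. No tubulin itself was among the 3 matched members. The 2 kinesins differed in their footprints. KIF9 (GSOIDG00005673001), a kinesin of the central pair, had 59.8, 90.9 and 164 RPM in RPF Torin 1, against 1459, 25.2 and 56.8 RPM in RPF DMSO, from 1321 RPM in RNA Torin 1 replicate 3. KIF23 (GSOIDG00000926001), a kinesin of the midbody in dividing cells and not of cilia, had 141, 650.2 and 240.3 RPM in RPF Torin 1, against 378, 37.7 and 200.3 RPM in RPF DMSO, from 333 RPM in the same RNA library. Scaled to its RNA, KIF23 therefore carried more RPFs than KIF9 in that collection. Both values rest on few reads from 1 RPF library, in which 3 counts are 32.8 RPM.

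Of the members named for sperm or testis, the sperm-specific sodium proton exchanger (GSOIDG00004369001), which raises the pH inside sperm, was the most abundant. It had 22.8, 8.38 and 1219.6 RPM in RNA Torin 1, against 2.30, 6.70 and 1.27 RPM in RNA DMSO, and 326, 1359 and 382 RPM in RPF Torin 1, against 1791, 101 and 359 RPM in RPF DMSO. SPAG6 (GSOIDG00007339001), an armadillo-repeat protein of the central pair, reached 517 RPM in RNA Torin 1 replicate 3, and its RPFs were at 391, 616 and 284 RPM in Torin 1, against 1259, 59.5 and 122.6 RPM in DMSO. SPATA4 (GSOIDG00002753001) reached 1171 RPM in that RNA library, against at most 36.5 RPM in the other 5. The 3 models described as TSSK1, a kinase of late sperm development in mammals, had 451 to 554 RPM in RNA Torin 1 replicate 3, against 0.473 to 8.14 RPM in the other RNA libraries. Their RPFs stood at 451 to 700.2 RPM in RPF DMSO replicate 1, but only at 3.43 to 43.7 RPM in the other 5 RPF libraries, which for the shallowest is close to what a few counts give. These near-identical descriptions may share reads, and it was not stated how reads that fit several places were counted.

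**Figure D3:**
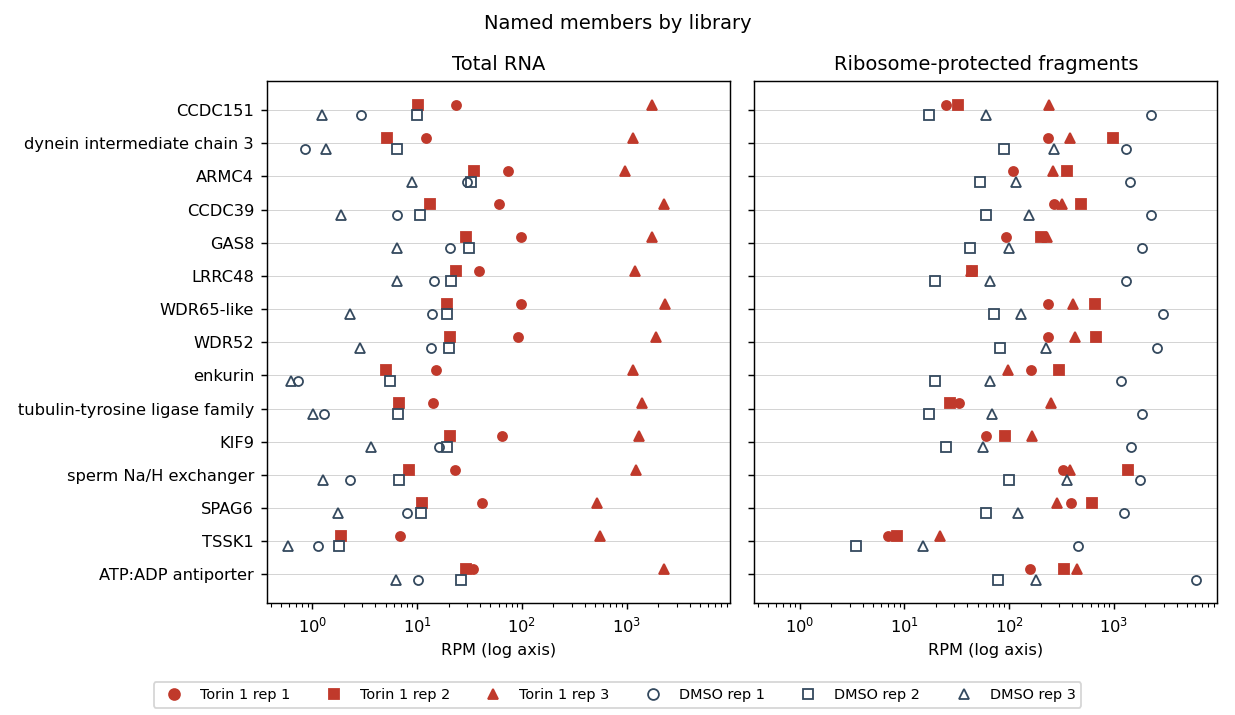
RPM (log axis) of 15 named members in total RNA (left) and RPFs (right), with 1 point per library, Torin 1 filled and DMSO open, and the marker shape giving the replicate number. In total RNA every gene has Torin 1 replicate 3 far to the right of the other 5 libraries, and in RPFs DMSO replicate 1 is the point farthest to the right for all 15.

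The members named for signalling and transport were spread over the range. A type I cGMP-dependent protein (GSOIDG00001693001, whose shortened description reads as a kinase) had 22.1, 7.98 and 1879 RPM in RNA Torin 1, against 2.19, 8.75 and 1.42 RPM in RNA DMSO. A regulatory subunit of a protein phosphatase (GSOIDG00010903001) reached 865 RPM in RNA Torin 1 replicate 3 and NEK4 (GSOIDG00001361001), of a kinase family with several ciliary members, 659.7 RPM. The calmodulin-dependent phosphodiesterase 1A (GSOIDG00002937001), which breaks down cyclic nucleotides, reached 591 RPM. MNS1 (GSOIDG00011425001), a doublet protein needed for sperm tails in mice, was the only member of the meiosis and cell cycle list and stood at 1089 RPM, with a ratio of 98.2. The ATP:ADP antiporter (GSOIDG00006704001), a carrier that exchanges the nucleotides across a membrane, was at 34.4, 29.3 and 2263 RPM in RNA Torin 1, against 10.2, 26.5 and 6.34 RPM in RNA DMSO. CCDC147 (GSOIDG00000475001), a coiled-coil protein, had 1828 RPM in RNA Torin 1 replicate 3 and a ratio of 74.1. Troponin C (GSOIDG00010799001), the calcium sensor of striated muscle, named here after its values were seen because it is the only member on the muscle list, had 12.98, 6.78 and 834 RPM in RNA Torin 1, against 1.86, 6.31 and 1.46 RPM in RNA DMSO, unlike the summed level of the other 27 muscle models.

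Per kilobase of coding length, the members had a median of 553 RPM per kb in RNA Torin 1 replicate 3. The highest was GSOIDG00017537001, a model with 1 coding exon of 312 bp and no description, at 9989 RPM per kb. The ATP:ADP antiporter, with 897 bp, stood at 2523 RPM per kb. GSOIDG00008879001, which had the second highest RPM but 11868 bp of coding sequence, had only 206 RPM per kb. Its other 5 RNA libraries were between 102 and 157 RPM, and in RNA Torin 1 replicate 2 and RNA DMSO replicates 1 and 2 no member was higher.

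A test of the treatment was made only in RPFs, whose values the rule had used only in the read minimum. It is not independent of the choice where it includes RPF DMSO replicate 1. That library followed RNA Torin 1 replicate 3, in which the members were chosen to be high, and so the values without it are given as well. Those values are not independent of the choice either. By its label, RPF Torin 1 replicate 3 came from the same collection as RNA Torin 1 replicate 3. With edgeR's quasi-likelihood test on the 6 RPF libraries, 0 of 14574 genes were past the adjusted p threshold of 0.05, higher or lower (0% called), and with them 0 of the 200 members. DESeq2 also called 0 genes. At an unadjusted p under 0.05, 1 member was higher and 84 members were lower in Torin 1, where 1.3% of all genes were higher and 4.12% lower. DESeq2 gave 6 members higher and 11 lower at that level, among 137 and 235 of the 14574 genes put in. It gave no adjusted p for the ATP:ADP antiporter and GSOIDG00011952001, both far highest in RPF DMSO replicate 1. Members without a p-value from DESeq2 were not counted, so the 84 and the 11 may not cover the same members. The median log2 fold change of the members was -1.35, against -0.24 over all genes, and it was negative for 75.5% of the members, as for 61% of all genes. Without the block the values were spread between -3.94 and 2.22, with 49 members above 0. The 3 Torin 1 libraries were all below the 3 DMSO libraries for 0 members (8.18% of all genes) and all above them for 2 members (2.17% of all genes).

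The direction of these differences also changed with a single library. Each fit without a library set 2 libraries of its group against 3 of the other. Without RPF DMSO replicate 1 the median of the members was 1.47, against 0.01 over all genes, and 195 members had a positive fold change, as did 50.4% of all genes. Then 9 members and 43 of 14574 genes (0.295%) were higher at an adjusted p of 0.05, and 0 members and 3 genes (0.0206%) were lower. Those 9 had log2 fold changes between 2.53 and 4.25 and adjusted p between 0.00151 and 0.0483 by edgeR, and none carried a description. For most of them the left-out DMSO library was above every Torin 1 library. They had 65.5 to 87.4 RPM in RPF Torin 1 replicate 3, where 3 counts are 32.8 RPM. The 3 Torin 1 libraries were all above DMSO replicates 2 and 3 for 77 members (38.5%), against 7.18% of all genes, and all below them for 0 members, against 14.9%. Leaving out a different DMSO library had the opposite effect. Without RPF DMSO replicate 2, 81 members and 194 genes (1.33%) were lower, with a median of -1.89, and 0 members and 13 genes (0.0892%) were higher. Without replicate 3, 15 members and 35 genes (0.24%) were lower, with a median of -1.84, and 0 members and 4 genes (0.0274%) were higher. Leaving out a Torin 1 library gave 0 called members each time, with medians between -1.68 and -1.15. Without Torin 1 replicate 3 the 84 members lower at an unadjusted p under 0.05 became 55, and over all genes 600 became 410.

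**Figure D4:**
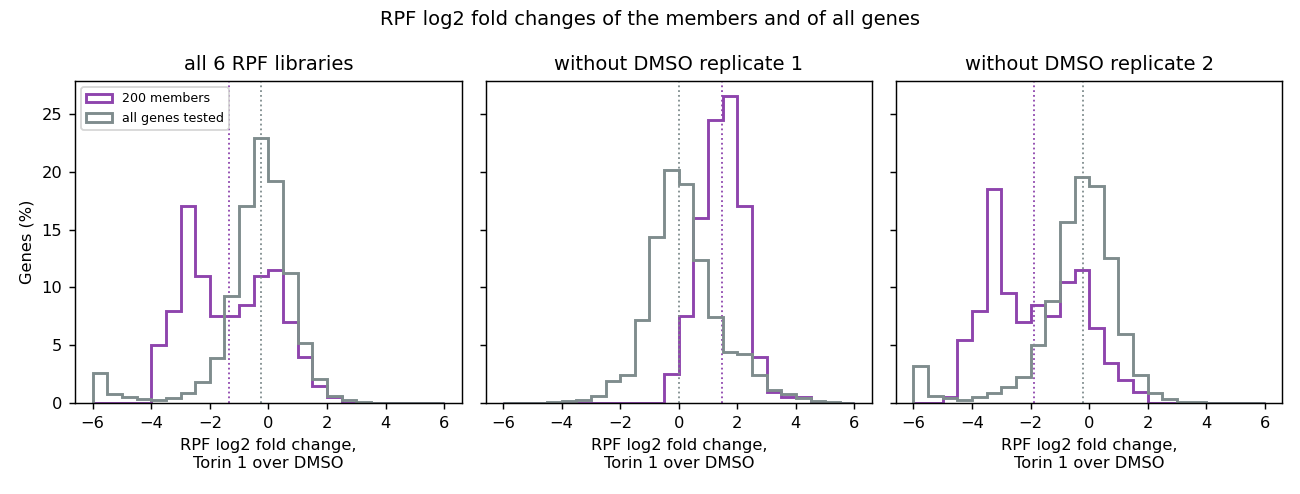
Distribution of RPF log2 fold changes, Torin 1 over DMSO, as percent of genes in bins of 0.5 for the 200 members (purple) and all 14574 genes tested (grey), with values beyond 6 put in the outer bins and dotted lines at the medians. The members' median is -1.35 with all 6 libraries, 1.47 without DMSO replicate 1 and -1.89 without DMSO replicate 2.

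The 8 members with the most RPF counts, as raw counts summed over the RPF libraries, fell into 2 kinds. RPF DMSO replicate 1 held 22889270 counts, against at most 874562 in any other RPF library, so these sums came mostly from it. The choice of the 8 therefore favoured members that were high in that library. GSOIDG00013833001 and GSOIDG00000621001, neither with a description, had the highest mean RPM of the members in RPF Torin 1. GSOIDG00013833001 stood at 6865, 32206 and 6587 RPM in RPF Torin 1, against 4699, 1923 and 3705 RPM in RPF DMSO, so its groups did not overlap. Its log2 fold change was 2.22 ± 1.27 (SE; edgeR adjusted p = 0.930). GSOIDG00000621001 stood at 5685, 30036 and 6346 RPM in RPF Torin 1, against 7802, 2059 and 3483 RPM in RPF DMSO, with a log2 fold change of 1.73 ± 1.26 and the same adjusted p. In both, RPF Torin 1 replicate 2 was several times above every other library. Their RNA in Torin 1 replicate 3 was 1721 and 2066 RPM.

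GSOIDG00017537001 and GSOIDG00008879001, the most abundant members in RNA, also had positive values without passing the test (1.07 ± 1.03 and 1.04 ± 0.99, both at an edgeR adjusted p of 0.953). GSOIDG00017537001 had 2139, 8662 and 4522 RPM in RPF Torin 1, against 3304, 676 and 3890.0 RPM in RPF DMSO, and GSOIDG00008879001 had 2044, 5765 and 1333 RPM, against 3716, 480.2 and 583 RPM. The groups overlapped in both.

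The other 4 had negative values, each with RPF DMSO replicate 1 far above the rest. The choice by summed counts favoured such members, so their high level in that library and their negative values are not independent of it. The ATP:ADP antiporter had 159, 333 and 448 RPM in RPF Torin 1, against 6133, 77.8 and 179 RPM in RPF DMSO, and a log2 fold change of -2.65 ± 1.14 (edgeR adjusted p = 0.910). GSOIDG00011952001 had 263, 628 and 404 RPM in RPF Torin 1, against 5156, 93.8 and 141 RPM in RPF DMSO (-1.93 ± 1.08, adjusted p = 0.926). GSOIDG00004265001 had 422, 703 and 273 RPM in RPF Torin 1, against 3167, 68.6 and 182 RPM in RPF DMSO (-1.14 ± 0.99, adjusted p = 0.948). The WDR65-like protein had 234, 655 and 404 RPM in RPF Torin 1, against 2915, 70.9 and 129 RPM in RPF DMSO (-1.15 ± 0.99, adjusted p = 0.947). Without RPF DMSO replicate 1 all 4 became positive, between 1.36 and 2.20, and none passed the test (adjusted p between 0.161 and 0.495).

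RPF DMSO replicate 1 was the highest of the 6 RPF libraries for 171 members (85.5%), against 31.7% of all genes, and RPF Torin 1 replicate 2 for the other 29. RPF DMSO replicate 2 was the lowest for 184 members, against 13.6% of all genes. Among the members, RPF DMSO replicate 1 also followed RNA Torin 1 replicate 3 gene by gene. The ratio of their RPM had a median of 1.18 and lay between 0.467 and 3.78, and 188 of 200 members were within 2-fold, as were 82.2% of 14565 genes with RNA counts. The rank correlation of the 2 libraries over the members was 0.93 (Spearman, n = 200 genes, a description over genes that share libraries). GSOIDG00013833001 and GSOIDG00000621001 were among the 10 members over 2-fold, at 2.73 and 3.78.

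The other 5 RPF libraries ranked the members in an order of their own. Spearman correlations among these 5 were between 0.72 and 0.94 over the members (10 pairs), whereas with RPF DMSO replicate 1 they were between 0.26 and 0.60 (5 pairs) and with RNA Torin 1 replicate 3 between 0.22 and 0.54 (5 pairs). Over all 14574 genes the range was 0.71 to 0.87 among the 5, and the 0.76 to 0.80 with RPF DMSO replicate 1 lay within it. The low end was in pairs with the shallow RPF Torin 1 replicate 3, at 0.71 to 0.75. Pairs among the deeper libraries were at 0.84 to 0.87, above their 0.76 to 0.80 with RPF DMSO replicate 1. A smaller gap was thus seen over all genes too. Among the 5 low RNA libraries the members gave 0.74 to 0.97, and with RNA Torin 1 replicate 3 they gave 0.27 to 0.55. These points share depth and genes, and the members were selected on RNA, which narrows their range in RNA Torin 1 replicate 3.

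**Figure D5:**
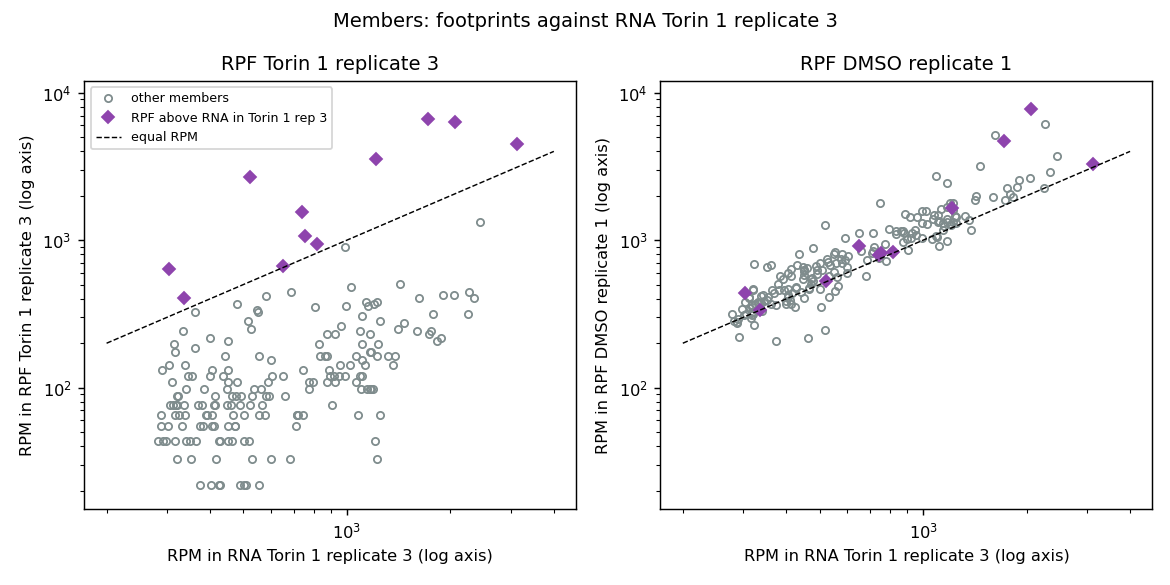
RPM of each member in RPF Torin 1 replicate 3 (left) and RPF DMSO replicate 1 (right) against its RPM in RNA Torin 1 replicate 3, on log axes with a dashed line at equal RPM. Purple diamonds are the 11 members whose RPFs exceed their RNA in Torin 1 replicate 3, and 1 member with 0 counts in RPF Torin 1 replicate 3 is left out of the left panel. On the left most members lie below the line with a wide scatter, and on the right 188 of 200 lie within 2-fold of it.

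Relative to the RNA of the same collection, the members' share of RPFs was 9.39, 64.7 and 0.374 times their share of RNA in the Torin 1 collections, against 114, 5.39 and 29.0 times in the DMSO collections. The groups overlapped widely, and Torin 1 replicate 3 was the only collection below 1. In the first 2 Torin 1 collections RPFs exceeded RNA for 177 and 197 members (in the second collection for 40.4% of all genes), against 200, 175 and 199 members in the DMSO collections. The share of all genes was not counted for the first Torin 1 collection or the DMSO collections. For these the all-gene medians below are the background. In the third Torin 1 collection this held for 11 members (5.5%), against 20% of all genes. The median log2 ratio of RPF to RNA over the members, with 1 RPM added to each, was 1.58, 3.56 and -2.52 in the Torin 1 collections, against 7.39, 1.44 and 4.28 in the DMSO collections. Over all genes it was -0.93, -0.44 and -1.25 in the Torin 1 collections, against -0.28, -0.42 and -0.35 in the DMSO collections. In all 6, RPFs were thus below RNA for most genes. The rule fixed RNA Torin 1 replicate 3 as high and the other RNA libraries as low, so these ratios are a description and were not tested.

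The 11 members with more RPFs than RNA in the third Torin 1 collection had a median coding length of 411 bp, against 1146 bp for the other 189. Their lengths ran between 312 and 1875 bp, and the pair with the highest RPF levels in RPF Torin 1 were not short, at 1335 and 1356 bp. Set apart by their values, they took 2.102%, 9.05% and 2.89% of counts in RPF Torin 1, against 2.21%, 0.608% and 1.94% in RPF DMSO. In that way they held more of the RPF counts than the other 189 members in RPF Torin 1 replicates 1, 2 and 3 and in RPF DMSO replicate 3, but not in RPF DMSO replicates 1 and 2. RPF Torin 1 replicate 2 was the highest RPF library for all 11, against 18 of the other 189. Only 1 of them was described, a histone H2A (GSOIDG00010649001), named here after its values were seen. This core histone had 957, 2105 and 1070.5 RPM in RPF Torin 1, against 821, 144 and 1142 RPM in RPF DMSO, and 10.3, 3.06 and 753 RPM in RNA Torin 1, against 1.01, 3.86 and 0.546 RPM in RNA DMSO. Its RNA was thus low in 5 libraries while its RPFs were above 100 RPM in all 6, with overlapping groups. The 2 left-out histone models had a like profile, with a summed 470.4, 1542 and 765 RPM in RPF Torin 1, against 589.6, 129 and 1157 RPM in RPF DMSO, and 4.72, 3.99 and 414 RPM in RNA Torin 1, against 0.450, 2.68 and 0.583 RPM in RNA DMSO.

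Levels of other cell types in the RPF libraries are given beside these results. Muscle genes summed to 1404 RPM in RPF DMSO replicate 1, against 317 to 697 RPM in the other 5, and ribosomal proteins to 4362 RPM, against 772 to 3483 RPM, while digestive, house and oocyte coat genes lay within the range of the others. In RPF Torin 1 replicate 3, 19 muscle models and 16 digestive models had 0 counts. The part of depth or of tissue content in the members' RPF values was not tested.

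The gene models themselves were taken from the deposited annotation, in which each of the 200 members had a model. Many genes of this animal lie in operons, where neighbouring genes on a strand are transcribed together and separated by trans-splicing of a leader. With a gap of at most 60 bp to a neighbour on the same strand as the definition, 146 members (73%) lay outside operons, 17 (8.5%) were first and 37 (18.5%) were downstream, against 63.4%, 13.1% and 23.4% of 14525 modelled genes with at least 100 reads. The members had a median of 6 coding exons and a coding length of 1125 bp, against 5 exons and 954 bp. The 470 genes below the rank threshold, of which 466 had a model, lay outside operons in 83.7% and had a median coding length of 594 bp. Members spread over 85 scaffolds, with 99 on the plus strand and at most 24 on a single scaffold.

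Of the 54 members in predicted operons, 10 shared the operon with another member and 18 with another gene that met the ratio, left-out models apart. The clearest run was on scaffold 16, between positions 651350 and 664273 on the plus strand, where 4 adjacent models, each described only as heavy chain 2, were separated by gaps of 23 to 29 bp. They were named after their values were seen. Their RNA was at 325 to 1250.2 RPM in Torin 1 replicate 3, at 20.5 to 81.4 RPM in Torin 1 replicate 1 and at 1.27 to 14.9 RPM in the 4 other RNA libraries. All 4 were high and low in the same libraries. In RPFs they stood at 366 to 1312 RPM in DMSO replicate 1 and at 12.6 to 724 RPM in the other 5 libraries.

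CCDC65 lay 42 bp from the left-out radial spoke head 9 model on the minus strand of scaffold 11 (positions 669427 to 675954). Troponin C lay 760 bp from a left-out dynein heavy chain model on scaffold 36, on the opposite strand. In all, 14 members formed 8 adjacent pairs. The other members had no member as a neighbour.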

How the data were processed

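Total RNA and RPFs from 12 libraries were used as deposited. The authors clipped adapters, removed rRNA and tRNA reads with Bowtie2 2.1.0, mapped the rest with TopHat2 2.0.13 and counted reads per gene with featureCounts. The deposited table holds raw counts without normalization. Strand setting, handling of reads with several positions and the build name are not given in the sources used here. Start and end positions from 1 came from the deposited annotation. All columns were mapped to samples.

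RPM are counts over the library total. RPFs of Torin 1 and DMSO were compared with edgeR 4.0.16 in R 4.3.3 (TMM factors, quasi-likelihood F-test, Benjamini-Hochberg adjustment over genes with at least 100 reads, threshold 0.05), in place of the study's test of efficiency, because RNA had chosen the members. Standard errors were the fold change over the root of its F value. The fit was run on simulated counts with a fixed spread and large changes in well expressed genes. That run does not show how the fit behaves at the spread of these libraries. DESeq2 1.42.0, its size factors, no filter, a replicate block and leaving out each library were the alternatives. For pairing, the deviation of each gene from its group mean was taken in each RPF library. Between same-numbered Torin 1 and DMSO libraries these deviations correlated at -0.127, 0.010 and -0.044, so numbers were not taken as pairs. Intervals and floors cover counting error only. P-values rest on 3 libraries per group, or on 2 against 3 where a library was left out.

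The members and lists were chosen with earlier results of these data known. Text names the 10 members most abundant in RNA Torin 1 replicate 3 (except 1 without description), up to 4 per role list, the 8 with most RPF counts, at most 3 left-out models, and at most 6 without description. Symbols such as CCDC39 shorten the descriptions in the study's list. No genome sequence was at hand, and no sequence is shown.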

Additional observations from a re-analysis of the deposited data

How the results depend on the processing

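With edgeR on RPFs, DESeq2 size factors changed no count of genes by over 1.5 times. At an unadjusted p under 0.05 DESeq2 had 6 members higher and 11 lower, in place of 1 and 84. These counts may not cover the same members, because DESeq2 gave no adjusted p for some of them. Over all genes it had 137 higher and 235 lower, in place of 190 and 600. Without the filter on low counts, 1 gene was higher and 3 were lower at an adjusted p of 0.05, none of them a member. Leaving out each RPF library in turn gave 0 to 43 genes higher and 0 to 194 lower at that threshold. Of the members, 0 to 9 were higher and 0 to 81 lower. Without adjustment 0 to 108 members were higher and 0 to 110 lower, among 71 to 835 and 277 to 987 of all genes. The median over the members lay between -1.89 and 1.47. The sign turned only without RPF DMSO replicate 1. With the replicate block, which the labels share only as a number, the median over the members was 0.25, with 0 members higher and 1 lower before adjustment (114 and 191 of all genes). The log2 fold change then turned to 0.19 for the ATP:ADP antiporter (GSOIDG00006704001), 0.63 for GSOIDG00011952001, 0.53 for GSOIDG00004265001 and 0.94 for the WDR65-like protein (GSOIDG00011346001). Over the libraries left out they ranged between -3.21 and 1.36, -2.49 and 1.96, -1.70 and 2.04, and -1.70 and 2.20 in the same order, and they were positive only without RPF DMSO replicate 1. These genes were picked by summed RPF counts, which came mostly from that library. The cause of these turns was not tested. The 670 genes that met the ratio stayed within 1.5 times under TMM scaling, other read minimums and ratios of 5 and 20. The members in operons were 34 with a gap of at most 30 bp, in place of 54. In the RNA DMSO libraries the share moved to 0.300%, 0.355% and 0.249% with a ratio of 5 and to 0.0810%, 0.127% and 0.0477% with a ratio of 20. Depth limits RPF Torin 1 replicate 3, where 3 counts are 32.8 RPM.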
